A study of Mus musculus with 9 samples.

Results

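The hedgehog pathway is described here through 9 genes: the ligands Shh and Ihh, the receptor Ptch1, the ligand-binding antagonist Hhip, the signal transducer Smo, the inhibitor Sufu and the transcription factors Gli1, Gli2 and Gli3. Each gene is represented by every probe set whose only annotated gene symbol was one of the 9 names. This gave 19 probe sets of 8 genes, out of 25581 probe sets of 14440 genes with a single symbol, and Gli1 was not analysed here. Of the 19, 15 probe sets of all 8 genes were bright enough to be tested, and the other 4 are given by their values.

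The arrays measured total RNA of 5 tumours and of 4 samples of normal skeletal muscle, with a single array for each. Tumours 1 to 5 carry the names CC23, CC17-B, CC17-A, then SSM5 and lastly SSM4, and all 5 arose in mice labelled MYF-5 CRE/SSM2. They model synovial sarcoma, a soft tissue cancer driven by the SYT-SSX fusion protein, and Myf5, the gene named with Cre, belongs to muscle precursors. The muscle samples were labelled wild type and came from hind limb, intercostal muscle, forelimb and a further hind limb sample (muscles 1 to 4). Tissue and genotype therefore change together in every comparison, no Cre-only or fusion-only tissue stands among the controls, and strain, age and sex were not in the labels used here. Tumours 2 and 3 share the code CC17, and nothing says which samples came from separate animals. The p-values therefore reflect only the spread among these samples, which may be technical.

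In hedgehog signalling, a secreted ligand binds Ptch1 and so ends the block that Ptch1 holds on Smo, a membrane protein that works in the primary cilium. Active Smo releases the Gli factors from Sufu, and Gli2 and Gli3 then act as activators instead of being cut to repressors. Ptch1, Hhip and Gli1 are themselves transcribed in response to the signal, and in muscle and limb development the pathway patterns the precursors of muscle and skeleton.

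Values are scaled intensities: the deposited signals after each array was brought to a common trimmed mean, which before scaling differed by 1.42-fold between the lowest and highest array. The 3-prime to 5-prime ratio of the Actb control probe sets, a sign of RNA quality, was 12.7 in tumour 1 and 1.99 to 4.54 in the other tumours, against 1.62 to 1.93 in muscle. Skeletal muscle markers, 8 of 9 of which were lower in tumours and 0 higher, summed to 83629, 34147, 5295, 333 and 107251 in tumours 1 to 5, against 419542 to 576146 in muscle. Tumours 1 and 4 are thus set apart, the one by its Actb ratio and the other by its low muscle markers, and among muscles the intercostal sample (muscle 2) stood out for cartilage markers and for adipocyte markers, whose sum was 488 to 33849 in tumours, against 115492 in muscle 2 and 28499 to 35324 in the other muscles. With 9 arrays, precision rests on their number.

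Of the 15 tested probe sets, 14 were higher in tumours, 0 were lower and 1, that of Ihh, was not called, where a call is an adjusted p under 0.05 from limma. Over all 17433 probe sets tested, 25.7% were called higher in tumour and 16.5% lower. The 14 calls covered 7 genes and each was at least 2-fold, a size that 19.7% of all probe sets tested reached. The median log2 change of the 15 was 2.45, against 0.18 over all probe sets tested, and it was 2.23 with 4 probe sets at the bounds given below. All 5 tumours lay above all 4 muscles for 13 of the 15, as they did for 21.7% of all probe sets tested. Of the 15, 4 lay below the floor of every muscle array (the 40th percentile of an array's values) and so could be tested only because they were bright in tumours. A call on those 4 could only be higher in tumours. Hhip 1455277_at, Smo 1427048_at and Gli2 1446086_s_at reached the floor in 1, 2 and 3 muscles, so they too needed tumour arrays to be tested. Without tumour 1 all 14 calls stood. Without tumours 1 and 4 there were 10, since the 4 below the floor in every muscle could then not be tested. In bulk tissue, fewer cells of a type and less RNA per cell cannot be told apart.

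The regions before the transcription start are shown for 3 genes that rose together, a receptor, the transducer and a transcription factor. They are the 250 bases upstream of a RefSeq start in GRCm38.p6, on the gene's strand, with GC boxes (GGGCGG or its reverse complement CCGCCC) in capitals.
Ptch1, chr13:63565736-63565985, minus strand: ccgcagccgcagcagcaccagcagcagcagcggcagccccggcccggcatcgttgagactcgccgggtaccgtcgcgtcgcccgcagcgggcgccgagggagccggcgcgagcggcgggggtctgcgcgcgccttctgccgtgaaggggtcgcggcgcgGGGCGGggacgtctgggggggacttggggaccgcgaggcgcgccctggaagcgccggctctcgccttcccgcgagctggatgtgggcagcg
Smo, chr6:29735247-29735496, plus strand: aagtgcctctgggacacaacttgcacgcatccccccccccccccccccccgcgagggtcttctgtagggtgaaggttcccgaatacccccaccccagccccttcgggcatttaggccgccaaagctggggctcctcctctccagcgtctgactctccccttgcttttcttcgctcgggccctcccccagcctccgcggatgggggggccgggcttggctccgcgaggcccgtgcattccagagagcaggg
Gli3, chr13:15463473-15463722, plus strand: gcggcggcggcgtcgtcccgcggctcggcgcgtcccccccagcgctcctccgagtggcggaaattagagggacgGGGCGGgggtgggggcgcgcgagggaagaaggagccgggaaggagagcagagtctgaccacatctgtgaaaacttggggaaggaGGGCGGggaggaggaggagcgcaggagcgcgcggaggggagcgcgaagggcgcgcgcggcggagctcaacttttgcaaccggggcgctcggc

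The Ptch1 window lies wholly inside the annotated span of its gene, so an annotated Ptch1 start lies further upstream. The 3 windows were rich in G and C, at 78.4% for Ptch1, 68.4% for Smo and 72.8% for Gli3, against a median of 52.4% over the 32851 windows of the table. The window of Ptch1 held 1 GC box, that of Gli3 held 2 and that of Smo 0. Of the 7 members with an entry, 6 had a GC box on either strand, a motif present in 32.7% of all windows. The consensus site of the Gli factors, GACCACCCA or its reverse complement TGGGTGGTC, was in 0 of the 7 member windows and in 0.225% of all windows. This says only that these letters are not in these 250 bases.

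Among the ligands, Shh, the sonic hedgehog ligand of limb, neural tube and epithelia, was higher in tumours as a group but not in each one. Its probe set 1436869_at had scaled intensities of 762, 269, 2264, 1415 and 1131 in tumours 1 to 5, against 141, 322, 195 and 183 in muscles 1 to 4. Tumour 3 was the highest, while tumour 2 lay below muscle 2, so the groups overlapped. The log2 change of Shh was 2.15 (SE 0.51), with a limma adjusted p = 0.00564. It was 1.84 without tumour 3 (adjusted p = 0.0125) and 2.59 without tumour 2 (adjusted p = 0.000467), and it was called under each of its 26 alternatives. The second Shh probe set, 1427571_at, was below the floor on all 9 arrays, at 5.78 to 64.3 in tumours and 11.4 to 111 in muscle, and was not tested.

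Ihh, the indian hedgehog ligand of growing cartilage, was not called in either direction. Its probe set 1450704_at read 209.6, 80.8, 95.9, 72.8 and 60.7 in tumours 1 to 5, against 156, 161, 160 and 136 in muscles 1 to 4. Only tumour 1 reached its floor, and the other 4 tumours lay below every muscle array. The log2 change was −0.61 (SE 0.36) and was not called by limma (adjusted p = 0.192). Leaving out tumour 1 gave −0.87 for Ihh (adjusted p = 0.0304), and array weights gave −0.80 (adjusted p = 0.0332), both called. Without tumour 1, Ihh passed the filter only through the 4 muscles, so a call there could only be lower in tumours. The adjusted p of Ihh ran from 0.0304 to 0.361 over its alternatives. Cartilage markers stood beside this: their summed level was 25418 in the intercostal sample and 1117 to 3709 in the other muscles, against 4848 to 10755 in tumours. Most of the tumour sum was Col2a1, at 3554 to 9869 in tumours and 30.0 to 3123 in muscle, while Col9a1 was called lower in tumours (log2 change −2.12) and the median change of the 7 tested markers was −0.89. Ihh was at 136 to 161 in all 4 muscles. The third ligand, Dhh, known from Schwann cells, was below the floor in every tumour, at 11.4 to 97.5, against 85.5 to 160 in muscle, and was not tested.

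Ptch1, the receptor that holds Smo inactive, was higher in tumours by both of its tested probe sets. The probe set 1428853_at read 6928, 5813, 5216, 8079.9 and 4989 in tumours 1 to 5, against 1008, 631, 1008 and 757 in muscles 1 to 4. The lowest tumour was well above the highest muscle, and the tumours differed among themselves by 1.62-fold from lowest to highest. The log2 change of Ptch1 was 2.85 (SE 0.22, limma adjusted p = 8.0e-06), a 7.19-fold difference. A second probe set, 1439663_at, read 425, 189, 399, 261 and 279 in tumours and 12.3 to 45.6 in muscle. Muscle was below the floor there, so its tumour level was at least 2.65-fold higher, measured on log2(value + 16) against the floor (adjusted p = 8.4e-05). It passed the filter only through the tumours, where it is high, so its call had to favour them. Without muscle 1, which read 45.6, the muscle mean of that probe set was 12.8, against 21.0 with it. The third, 1450824_at, was below the floor on all 9 arrays, at 7.16 to 42.9 in tumours and 33.5 to 96.8 in muscle, and was not tested. With no filter on dim probe sets it was called lower in tumours, opposite to the other Ptch1 probe sets, at a log2 change of −1.18 (adjusted p = 0.0454), with both groups below the floor.

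Hhip, a membrane and secreted protein that binds hedgehog ligands and limits their range, was higher in tumours by all 4 of its probe sets. The probe set 1455277_at, used below to compare genes, read 291, 552, 426, 1927 and 2354 in tumours 1 to 5, against 58.9, 64.4, 138 and 32.9 in muscles 1 to 4. Tumours 4 and 5 stood apart above the other 3, and the groups did not overlap. The log2 change of Hhip was 3.31 (SE 0.61, limma adjusted p = 0.00122). The probe set 1437933_at was steadier over the tumours, at 700, 773, 1039.9, 1147 and 1537, with every muscle between 5.10 and 28.6 and below the floor. By that probe set Hhip was at least 8.56-fold higher in tumours (adjusted p = 3.8e-06). The probe sets 1438083_at and 1421426_at, also below the floor in every muscle, put it at least 3.68-fold and at least 2.63-fold higher, with tumour 5 the highest in each. These 2 and 1437933_at passed the filter only through the tumours, where they are high, so their calls had to favour them. They are not separate support for the call of 1455277_at. That probe set reached the floor in muscle 3 only among muscles, so it also needed tumour arrays to pass the filter.

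**Figure D1:**
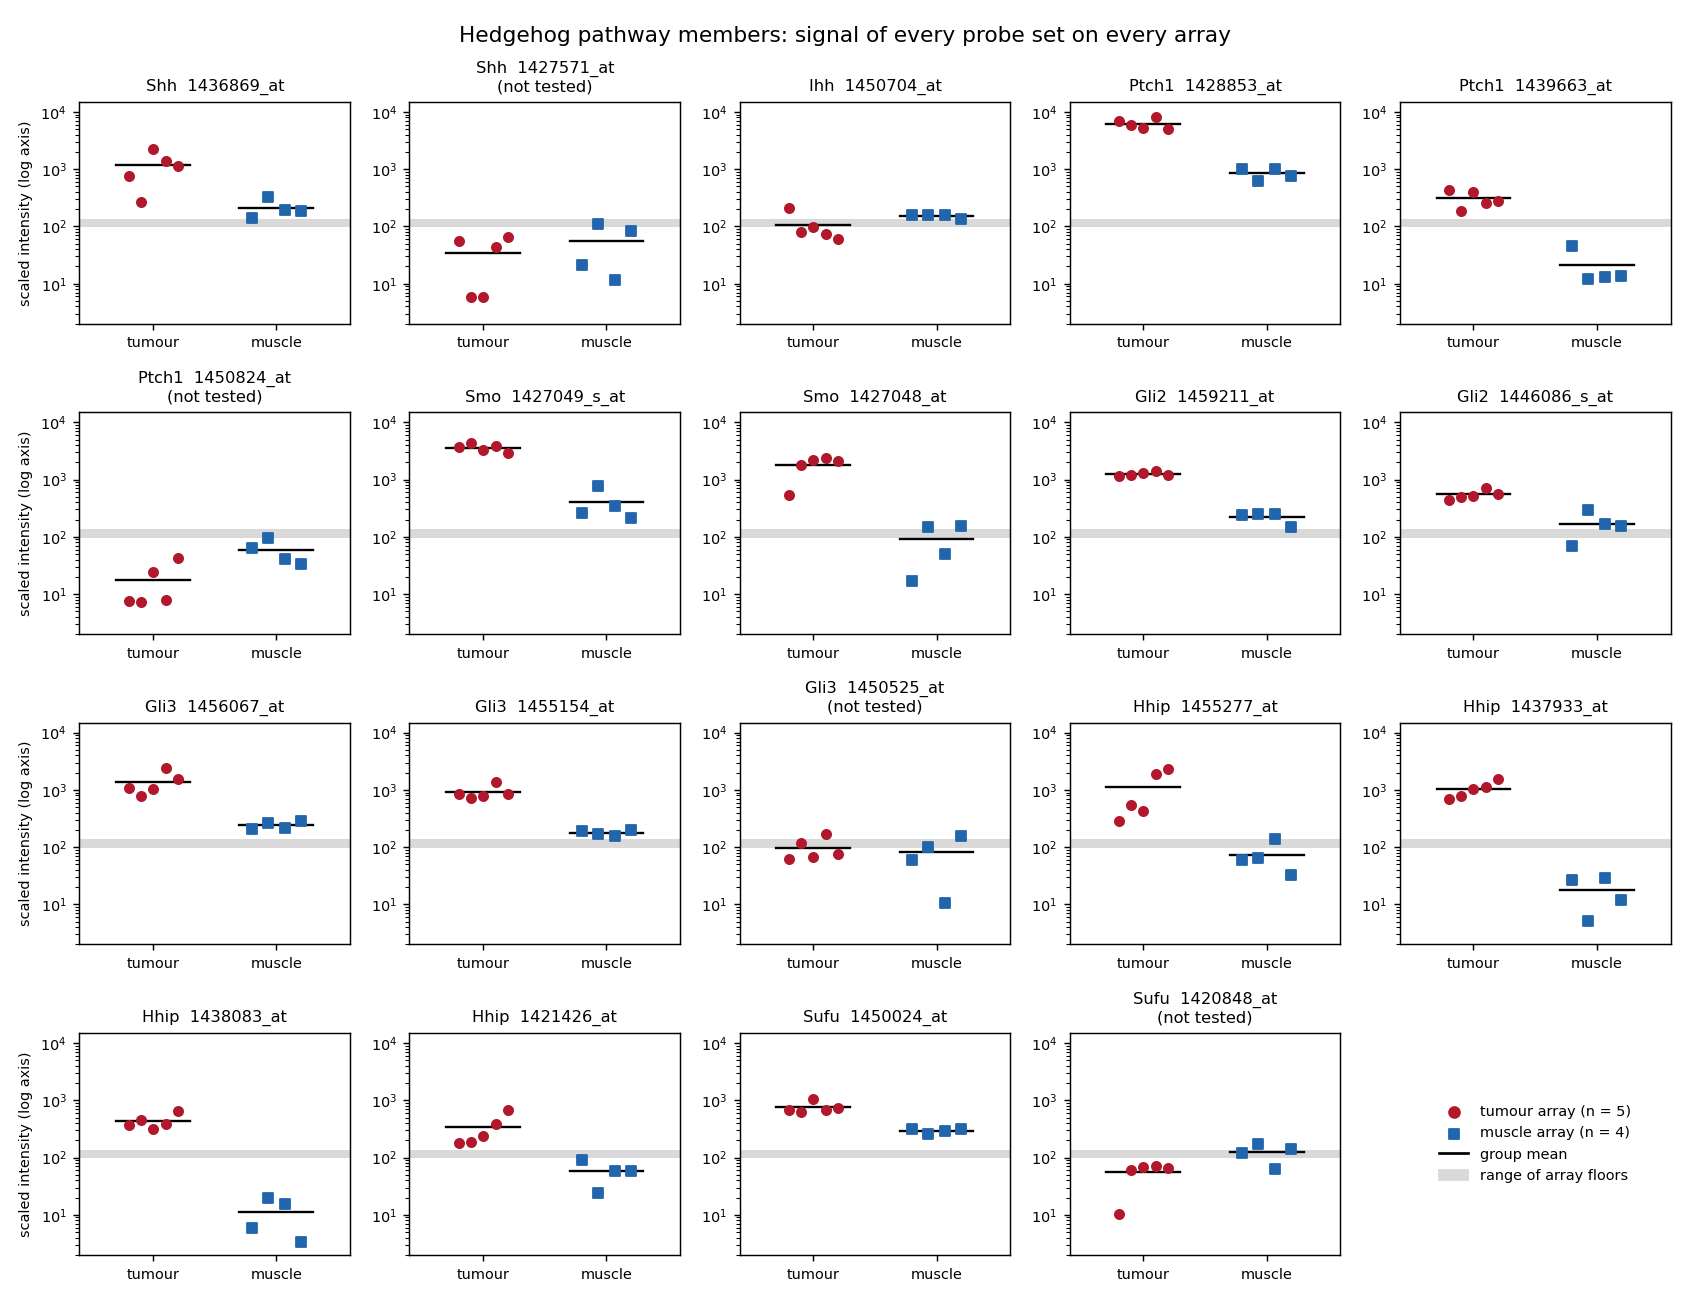
Scaled intensity (log axis) of all 19 hedgehog member probe sets on 5 tumour arrays (circles, left) and 4 muscle arrays (squares, right), with group means as lines and the range of the array floors in grey. The groups do not overlap for 13 of the 15 tested probe sets; Shh 1436869_at overlaps through tumour 2 at 269, and Ihh reaches the floor in tumour 1 only among tumours, at 209.6.

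Smo, the transducer between receptor and Gli factors, was higher in every tumour by both of its probe sets. The probe set 1427049_s_at read 3679, 4270.1, 3261, 3922 and 2875 in tumours 1 to 5, against 257, 771, 349 and 214 in muscles 1 to 4. Every tumour stood above every muscle, and the intercostal sample was the highest muscle. Smo had a log2 change of 3.29 (SE 0.32, limma adjusted p = 2.7e-05). The other probe set, 1427048_at, taken from the same sequence record, read 531 in tumour 1 and 1829 to 2358 in the other tumours, against 16.9 to 155 in muscle, with a log2 change of 4.19 (SE 0.56, adjusted p = 0.00016).

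Sufu, which binds the Gli factors and restrains them, had the smallest rise among the called probe sets. Its probe set 1450024_at read 666, 619.8, 1048, 680.0 and 746 in tumours 1 to 5, against 315, 254, 291 and 309 in muscles 1 to 4. Every tumour stood above every muscle, and tumour 3 was the highest. Sufu had a log2 change of 1.29 (SE 0.21, limma adjusted p = 0.00059). The other Sufu probe set, 1420848_at, from the same sequence record, was below the floor in every tumour, at 10.5 to 71.0, and at 62.8 to 176 in muscle. It reached the floor in 3 muscles, was not tested, and its groups overlapped. With no filter on dim probe sets its log2 change was −1.04, opposite to 1450024_at, and was not called by limma (adjusted p = 0.113).

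Gli2, the main transcriptional activator of the pathway, was nearly level over the tumours. Its probe set 1459211_at read 1162, 1224, 1316, 1429.95 and 1194 in tumours 1 to 5, against 237, 251, 253 and 149.8 in muscles 1 to 4. Its tumours spanned 1.23-fold from lowest to highest, the narrowest span of the 15 tested probe sets. The log2 change of Gli2 was 2.45 (SE 0.21, limma adjusted p = 1.2e-05). The probe set 1446086_s_at, of the same sequence record, read 443 to 726 in tumours against 70.4 to 289 in muscle, with a log2 change of 1.72 (SE 0.33, adjusted p = 0.00174).

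Gli3, the factor best known as the pathway's repressor, was higher in tumours too, and highest in tumour 4. Its probe set 1456067_at read 1082, 794, 1059, 2393 and 1563 in tumours 1 to 5, against 204, 263, 212 and 284 in muscles 1 to 4. The groups did not overlap, and tumours 4 and 5 lay above the other 3. Gli3 had a log2 change of 2.35 (SE 0.30, limma adjusted p = 0.00013), and 1455154_at gave 2.23 (SE 0.23, adjusted p = 3.1e-05). The third Gli3 probe set, 1450525_at, reached the floor on 3 arrays, with 62.7 to 169.7 in tumours and 10.6 to 154 in muscle, and was not tested.

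**Figure D2:**
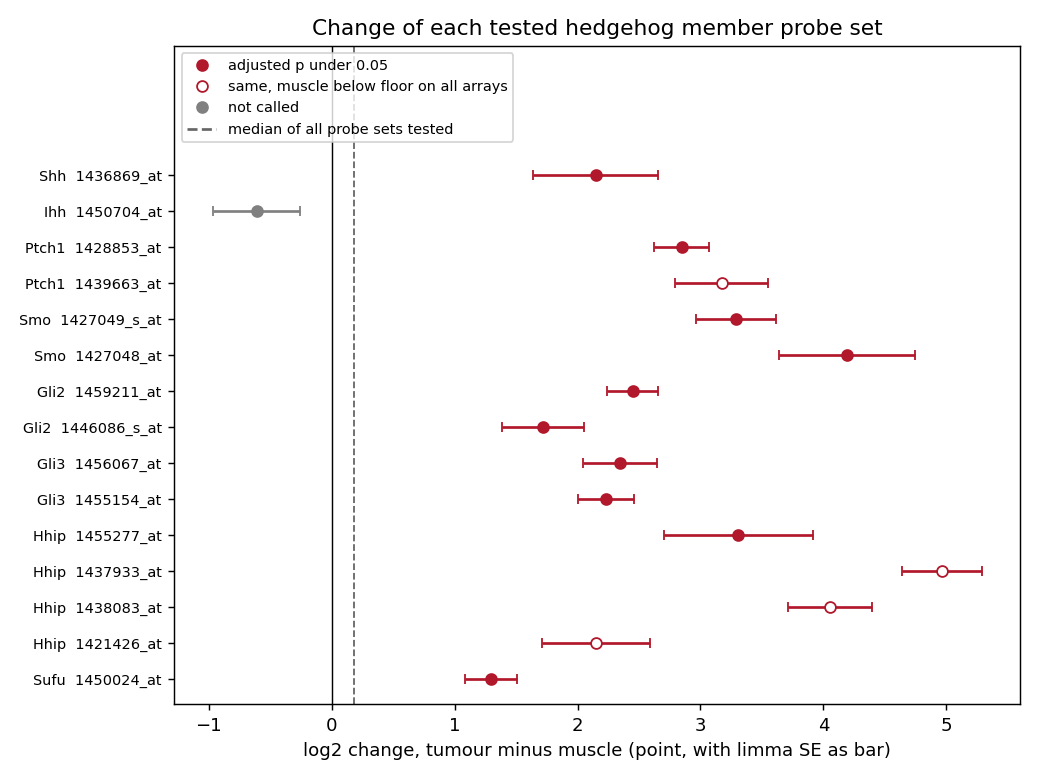
Log2 change, tumour minus muscle, of the 15 tested hedgehog member probe sets (points) with limma's SE (bars). The 14 called probe sets run from 1.29 for Sufu to 4.96 for Hhip 1437933_at, open points mark the 4 below the floor on every muscle array, and the dashed line is the median of all probe sets tested, at 0.18.

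Differences between members in how much they changed were tested for 3 pairs, each gene by its brightest probe set, with a two-sided exact permutation test over all splits of the arrays into 5 and 4. The smallest p such a test can give is 0.0159. The change of Gli2 exceeded that of Gli3 by 0.102 on the log2 scale (exact p = 0.778, also 0.778 adjusted over the 3 pairs). The change of Ptch1 was smaller than that of Smo, with a difference of −0.443 (exact p = 0.413, adjusted p = 0.778). Without muscle 2 it was −0.942 (exact test, adjusted p = 0.107), and it ran from −0.942 to −0.212 with single arrays left out. The change of Hhip exceeded that of Ptch1 by 0.462 (exact p = 0.556, adjusted p = 0.778), and by 0.00345 without tumour 5 and 0.859 without tumour 1. No pair passed, and these p-values do not show that the changes were alike.

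The members did not rank the tumours alike. Among the 14 called probe sets, tumour 4 was the highest for 6, tumour 5 for 4, tumour 3 for 2 and tumours 1 and 2 for 1 each. Tumour 1 was the lowest for 6 and tumour 2 for 5. Probe sets of a gene are not separate members: those led by tumour 5 were all of Hhip. Those led by tumour 4 included both of Gli2 and both tested ones of Gli3. Those lowest in tumour 1 were of Hhip, Gli2 and Smo only. The part of the Actb ratio of tumour 1, at 12.7, was not tested. Hhip 1455277_at was at 26.2 and 32.0 times its muscle mean in tumours 4 and 5, against 3.95 to 7.51 times in tumours 1 to 3. Shh 1436869_at stood at 10.8 times its muscle mean in tumour 3 and 1.28 times in tumour 2. Ptch1 1428853_at ran only from 5.86 to 9.49 times over the 5 tumours. Both tumours labelled SSM were above all 3 labelled CC for Gli3 by both tested probe sets. They were also above them for Hhip by 3 of 4 and for Gli2 by 1 of 2, with 1927 and 2354 against 291 to 552 for Hhip 1455277_at. They were not above them for Shh, Ihh, Sufu or any tested probe set of Ptch1 or Smo. The share of all probe sets with this order was not counted, so it cannot be read as a trait of these genes. The difference between SSM and CC tumours was not tested.

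Other cell types also varied between these tumours. Epithelial markers, of which 5 of 7 tested genes were higher in tumours and 0 lower, summed to 17132 in tumour 3 and 3056 to 4146 in the other tumours, against 506 to 1276 in muscle. Tumour 3 was thus highest and tumour 2 lowest both for these markers and for Shh. Of the epithelial markers called, Epcam and Dsp lay below the floor in every muscle, so their calls had to favour tumours. Tumours 4 and 5 had the most Gli3 by both tested probe sets. They had the most Hhip too, except by 1438083_at, where tumour 2 (453) exceeded tumour 4 (382). Fibroblast markers (2 of 6 higher, 1 lower) summed to 93611 and 57948 in tumours 4 and 5. Their sums were 20557 to 31375 in tumours 1 to 3 and 34328 to 48036 in muscle. Proliferation markers, all 7 of which were higher in tumours, ran the other way, at 9789 and 8230.2 in tumours 4 and 5 and 16098 to 18895 in tumours 1 to 3, against 884 to 2298 in muscle. Bub1b among them was below the floor in every muscle, so its call too had to favour tumours. The Schwann cell markers (0 of 5 higher, 1 lower) summed to 3673 to 10842 in tumours and 4750.4 to 7074 in muscle, and the cartilage markers had 1 of 7 higher and 1 lower. Macrophage markers had 1 of 3 higher and 0 lower, endothelial markers 0 of 5 higher and 1 lower, and adipocyte markers 0 of 3 in either direction. Their part in the hedgehog values was not tested.

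**Figure D3:**
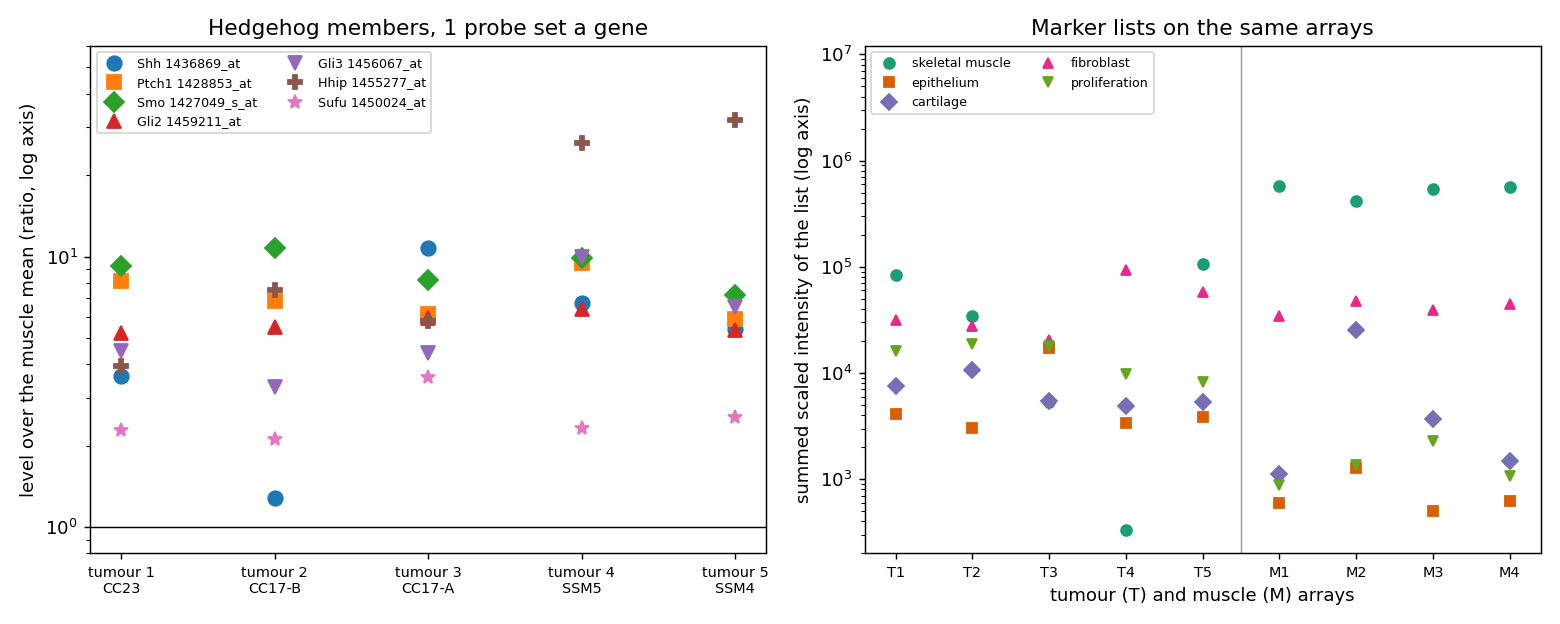
Left, level of 7 hedgehog members in each tumour as a ratio to the muscle mean (log axis), 1 probe set a gene; right, summed scaled intensity (log axis) of 5 marker lists on the 5 tumour and 4 muscle arrays. Hhip stands at 26.2 and 32.0 in tumours 4 and 5 and Shh at 10.8 in tumour 3, where the epithelial sum is 17132.

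The rest of the pathway was followed in 61 further genes in 5 lists, of which 51 were in the table and 40 were tested, each by its brightest probe set. Of the 40, 24 were higher in tumours, 3 lower and 13 not called, with a median log2 change of 1.16. Of all 10650 genes tested this way, 28.9% were higher and 17.4% lower, with a median of 0.23. Over the alternatives the count of higher genes ran from 19, without muscle 3, to 26.

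Of 4 tested genes that handle the ligand, 2 were higher in tumours and 0 lower. The shares over all 10650 genes tested this way were 28.9% higher and 17.4% lower. With so few genes the count is not read as a trait of the list. Scube2 and Scube3, secreted proteins of which Scube2 helps release the lipid-bearing ligand from cells, were higher, and Disp1 and Scube1 were not called. Scube2 was at 1214, 1216, 1194, 1220.5 and 1037 in tumours 1 to 5, against 95.1, 147, 83.2 and 76.2 in muscles 1 to 4. The tumours were level with each other and far from muscle, with a log2 change of 3.39 (SE 0.22, limma adjusted p = 3.4e-06). Scube3 was at 629 to 1053 in tumours and 5.65 to 21.8 in muscle, which was below the floor, so that it was at least 6.82-fold higher. Scube3 passed the filter only through the tumours, where it is high, so its call had to favour them, and without tumours 1 and 4 it could not be tested and 1 of 3 ligand-handling genes was called. Disp1, the transporter that releases the ligand, averaged 244 ± 67.9 (SD) over the 5 tumours and 204 ± 92.7 (SD) over the 4 muscles. Hhat, the enzyme that adds palmitate to the ligand, reached 205 in tumour 1 and was not tested.

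Of the co-receptors and other surface proteins that bind ligand beside Ptch1, 4 of 4 tested genes were called higher in tumours. The share over all 10650 genes tested this way was 28.9%. The count fell to 2 without muscle 1, 3 or 4, and with so few genes it is not read as a trait of the list. Cdon read 6187, 11158, 5192, 5827 and 3385 in tumours 1 to 5, against 518, 915, 707 and 614 in muscles 1 to 4, with a log2 change of 3.10 (SE 0.31, limma adjusted p = 3.0e-05). Boc, its close relative, averaged 1370.0 ± 478 (SD) over the 5 tumours and 275 ± 107 (SD) over the 4 muscles, with tumour 5 the lowest tumour at 546 and the groups apart. Gas1, a membrane-anchored co-receptor, had a log2 change of 0.94 (adjusted p = 0.0266), and its groups overlapped through muscle 2, at 5988. The Gas1 call was lost under 9 alternatives, with adjusted p = 0.067 on the values as deposited, 0.061 without tumour 2, 0.059 without tumour 3, 0.0891 without muscle 1, 0.0809 without muscle 3 and 0.0752 without muscle 4. Gpc3, a glypican that competes with Ptch1 for ligand, had a log2 change of 1.68 (adjusted p = 0.0231). That call was lost without muscle 1 (adjusted p = 0.0722), muscle 3 (0.0585) or muscle 4 (0.067), and without tumours 1 and 4 (0.054). Muscle 2 was the highest muscle for both genes, at 5988 for Gas1 and at 684 for Gpc3, where the other muscles read 179 to 251.

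Genes of the cilium, where Smo and the Gli factors are processed, were higher in 8 of 9 tested cases, and 0 were lower. The shares over all 10650 genes tested this way were 28.9% and 17.4%. Over the alternatives the count of higher cilium genes ran from 6 to 9. Kif3a, a motor of transport along the cilium, averaged 589 ± 47.1 (SD) over the 5 tumours and 195 ± 26.7 (SD) over the 4 muscles, and all 4 of its tested probe sets were called higher. Evc2 and Evc, which hold Smo in a zone near the base of the cilium, had log2 changes of 1.62 and 1.25. Tulp3, an adaptor that brings receptors into the cilium, had one of 1.94, and Ift122, a part of the transport train, one of 1.99, but a second Tulp3 probe set was not called. Kif7, a kinesin that regulates the Gli factors at the cilium tip, had a log2 change of 1.66 (limma adjusted p = 0.0325). Among muscles it reached the floor only in muscle 1, so it needed tumour arrays to be tested. Kif7 read 51.9 in tumour 1, below 2 of the muscles, and the call was lost under 12 alternatives. Its adjusted p was 0.0697, 0.0673, 0.0716 and 0.0608 without tumours 2, 3, 4 and 5 in turn, 0.0892 without muscle 2, 0.0868 without muscle 3 and 0.303, at a log2 change of 0.89, without both of those muscles. Ift172, not called at 0.48 (adjusted p = 0.0695), had all 5 tumours above all 4 muscles.

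Of 11 tested kinases and turnover factors, 3 were higher, 3 lower and 5 not called. Over all 10650 genes tested this way, 28.9% were higher and 17.4% lower. With so few genes the split is not read as a trait of the list. Cul3, the scaffold of the ubiquitin ligase that, with its adaptor Spop, degrades Gli2 and Gli3, read 1894, 2353, 2049.8, 2372 and 2499 in tumours 1 to 5, against 6872, 5151, 5684 and 6996 in muscles 1 to 4. The tumours were all below the muscles, with a log2 change of −1.46 (SE 0.18, limma adjusted p = 0.0001), and all 5 tested Cul3 probe sets were called lower. Spop averaged 3388 ± 953 (SD) over the 5 tumours and 6449 ± 275 (SD) over the 4 muscles, with a log2 change of −0.97 (adjusted p = 0.00488), and 1 of its 2 other probe sets was called lower. Prkaca, a catalytic subunit of protein kinase A, which primes the Gli factors for cleavage, had a log2 change of −1.19 (adjusted p = 0.0253), while its relative Prkacb had one of 0.94 (adjusted p = 0.00488). Each of these 2 genes had 1 other tested probe set, which was not called. Tumour 1, at 5285, lay within the muscle range of Prkaca. Prkaca was no longer called with quantile normalisation (adjusted p = 0.0687), without tumour 5 (0.0509), or without muscle 1 (0.067), muscle 3 (0.0568), muscle 4 (0.0654) or muscles 2 and 3 together (0.0792). Numb, which directs Gli1 to degradation, had a log2 change of 1.15 (adjusted p = 0.00162). Stk36, a kinase relative of fly fused, read 96.4 to 192 in tumours and was below the floor in every muscle, so it was at least 1.22-fold higher. Like Scube3, it was tested only through the tumours, and 2 of 10 kinase and turnover genes were called higher where it dropped out of the test, without tumour 1, 3, 4 or 5 or without tumours 1 and 4. From an adjusted p of 0.0258, it was no longer called at a common 75th percentile (adjusted p = 0.0555) or without muscle 1 (adjusted p = 0.0611), muscle 3 (0.054) or muscle 4 (0.0772).

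Of 12 tested genes reported as hedgehog targets, 7 were higher and 0 lower. Among all 10650 genes tested this way, 28.9% were higher and 17.4% lower. The count of higher targets ran from 6 to 8 over the alternatives. The D-type cyclins, which drive entry into the cell cycle and answer to many signals, changed most. Ccnd2 was at 14801 to 43921 in tumours and 599 to 1599 in muscle, and Ccnd1 at 3069 to 7000.2 in tumours and 499.8 to 571 in muscle. Foxf1, a forkhead factor of mesenchyme next to hedgehog-producing epithelia, read 323, 615, 564, 788 and 1083 in tumours 1 to 5, against 179, 199, 172 and 171 in muscles 1 to 4. Tumour 1 was again the lowest tumour and tumour 5 the highest, with a log2 change of 1.71 (SE 0.31, limma adjusted p = 0.00111), though a second Foxf1 probe set was not called. Bmp4, a secreted factor of limb and gut mesenchyme, averaged 1038 ± 161 (SD) over the 5 tumours and 364 ± 55.8 (SD) over the 4 muscles. Cdk6, a kinase partner of the D-type cyclins, had a log2 change of 1.26 (adjusted p = 0.00941). Of the neural tube targets, Nkx2-2 read 41.7, 45.0, 117, 174 and 138 in tumours 1 to 5, above the floor in tumours 4 and 5, against 2.00 to 63.5 in muscle, and was not tested. Nkx6-1, Olig2 and Foxa2 lay under every floor in the tumours and were not tested. Nkx6-1 read 6.97 to 87.8 in tumours and 8.02 to 113 in muscle, Olig2 6.19 to 59.4 in tumours and 3.74 to 7.18 in muscle, and Foxa2 11.6 to 81.5 in tumours and 26.9 to 204 in muscle.

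**Figure D4:**
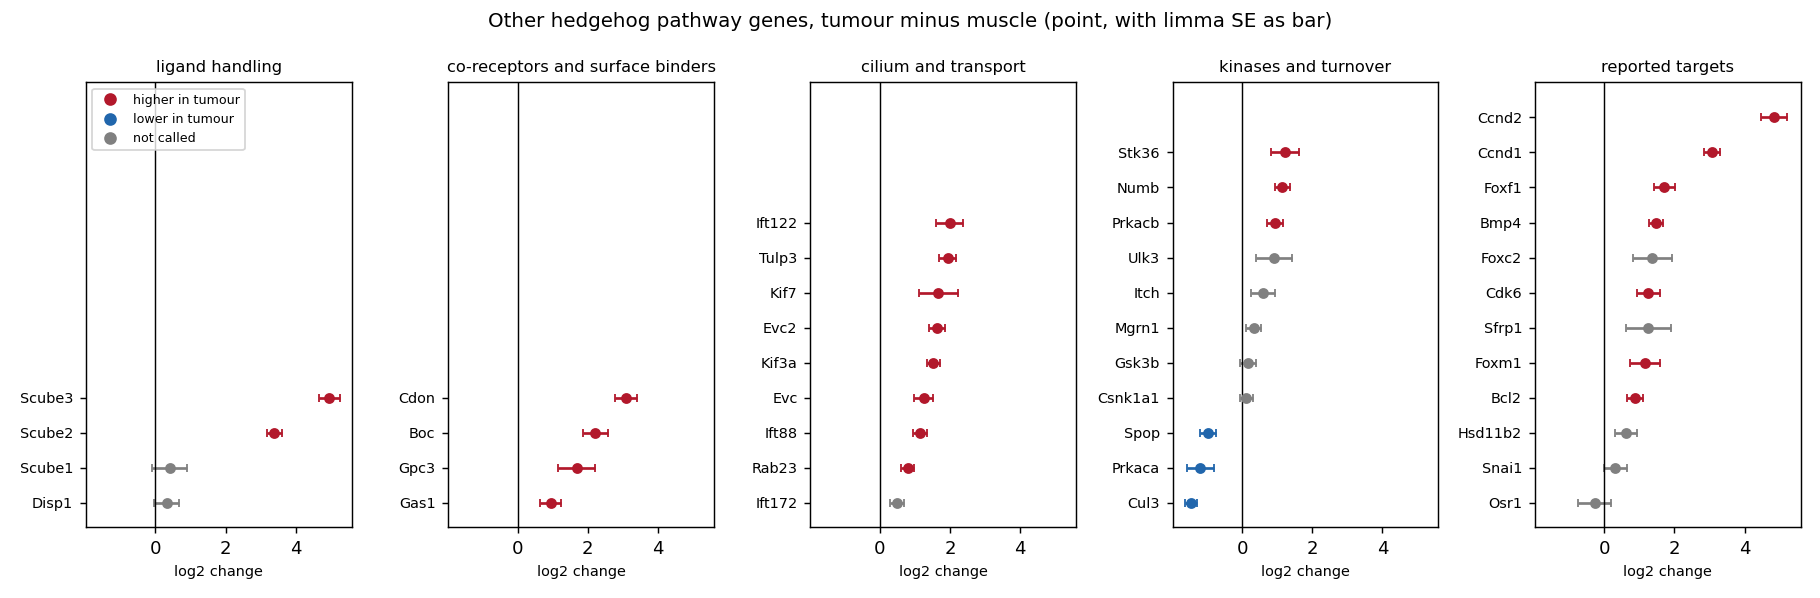
Log2 change, tumour minus muscle, of the 40 tested genes in 5 lists of the hedgehog pathway (points) with limma's SE (bars), coloured by call. The surface list has 4 of 4 genes higher and the cilium list 8 of 9, against 28.9% of all genes tested this way. Cul3, Prkaca and Spop are the 3 genes called lower.

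Across all 9 arrays the pattern of Ptch1 was closest to Plxnc1, Ntn1, Rtn4rl1, Man2c1 and Col4a5. Likeness was the mean absolute difference between 2 genes in log2 level, after each gene's own mean over the 9 arrays was subtracted, and the values were 0.189, 0.205, 0.22, 0.236 and 0.236. Among the members, Gli2 came nearest, at rank 12 of 10649 genes with 0.259, ahead of Gli3 at rank 238 and Smo at rank 380. Shh was at rank 1233 and Hhip at rank 1544.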

How the data were processed

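The deposited intensity values of each probe set, on a linear scale, came from MAS5 (per the submitters' processing notes), whose version and scaling target are not given in the sources used here. Per the labels' protocols, biotin-labelled target was made from Trizol-extracted total RNA. The table used held 30508 probe sets on 9 arrays; the tests left out 7 controls, 496 annotated to more than 1 gene and 4424 without a gene symbol.

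Because array means (2% trimmed at each end) differed by more than 10%, each array was scaled to their common mean, with factors of 0.909 to 1.29. Levels are log2(scaled value + 16). A probe set was tested if it reached its array's 40th percentile (the floor) on at least 4 arrays. The groups were tested in R 4.3.3 by limma 3.58.1, whose moderated test used lmFit and a trended eBayes. Its p-values are two-sided and were adjusted by Benjamini-Hochberg over all 17433 probe sets tested. The fit ran over probe sets and not 1 per gene, since every probe set of the members was wanted. A bound ("at least") sets the mean log2 level of tumours against the floor of the muscle arrays. The procedure was tested on simulated data. No sample numbers pair the groups.

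The members and gene lists were chosen with earlier results of these data known. From each list the text names up to 5 called genes with the largest change, and uncalled genes whose values are needed. Evc and Prkacb were added after their values were seen. Comparisons that need Gli1 were not run. Alternatives were other scalings, pseudocounts, filters and fits, 1 probe set a gene, the CC17 tumours averaged and each array left out. Leaving out tumours 1 and 4, or muscles 2 and 3, was added after seeing the data. Promoter windows are RefSeq's, found for 7 of the members by symbol.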

Additional observations from a re-analysis of the deposited data

Results flagged for a closer look

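Of 38 groups of member values (19 probe sets in tumours and in muscle), 6 had 1 array far from the others by Dixon's test, which flags about 1 in 20 groups by chance. Ihh was highest in tumour 1, at 209.6, and the call for Ihh turns on that array, as given above. Smo 1427048_at was lowest in tumour 1, at 531, and its log2 change was 4.58 without that tumour. Sufu 1420848_at was lowest in tumour 1, at 10.5, below the floor. Gli3 1455154_at was highest in tumour 4, at 1358. Ptch1 1439663_at was highest in muscle 1, at 45.6, also below the floor. Gli2 1459211_at was lowest in muscle 4, at 149.8. Of the 3 tumour values that involve tumour 1, the part of its high Actb ratio was not tested.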

How the results depend on the processing

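The count of member probe sets called higher was 14 under all settings but 4. It was 7 with 1 probe set a gene, which tests 1 probe set for each of 8 genes, 12 with the floor at the 60th percentile, 11 with the mean level at or above the median, and 10 without tumours 1 and 4, where the 4 probe sets below the floor in muscle could no longer be tested. No tested member changed direction, and of 371 recomputed member values 369 kept their side of the threshold, the exceptions being the 2 of Ihh. These are the tested probe sets: with no filter, Ptch1 1450824_at, below the floor on every array, was called lower at −1.18 (adjusted p = 0.0454). Of the other untested ones, Sufu 1420848_at was at −1.04, Shh 1427571_at at −0.45 and Gli3 1450525_at at 0.44, none of them called. With a pseudocount of 64, the log2 change of the probe sets dim in muscle was smaller, at 2.12 for Ptch1 1439663_at, 3.71 for Hhip 1437933_at, 2.70 for Hhip 1438083_at and 3.54 for Smo 1427048_at. With 1 it was 3.99, 5.97 and 5.39 for the first 3. For Scube3 it was 3.53 with 64 and 6.28 with 1. Over all probe sets, higher calls made up 60.8% of calls, against 47.4% with arrays centred on their median, 45.8% at a common 75th percentile and 71.2% when ribosomal and proteasome genes set the centre, where the median change of all probe sets was −0.05, −0.07 and 0.38. The small pair differences changed sign: Hhip minus Ptch1 was −0.0529 with a pseudocount of 64, and Gli2 minus Gli3 was −0.0182 with the CC17 tumours averaged, −0.204 with the mean of all tested probe sets, and −0.142 to 0.282 with single arrays left out. Over the same, Ptch1 minus Smo ran from −0.942 to −0.212 and Hhip minus Ptch1 from 0.00345 to 0.859. The cause was not tested. A random block for the CC17 pair could not be estimated and was not run. No paired analysis was possible because the arrays carry no numbers that pair tumour with muscle. Values under the floor carry little signal over background.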
